A study of Mus musculus with 19 samples.

Results

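Small nucleolar RNA host genes are long noncoding genes whose introns carry small nucleolar RNAs (snoRNAs). The genes described here are Snhg1, Snhg3, Snhg6, Snhg8, Snhg12, Snhg14, Snhg20 and Gas5, which are 8 of the 20655 gene rows in the count table. They were chosen by name, with earlier results of these data in view, so their values below are a description and not independent evidence. All 8 were found by Ensembl gene ID, and all 8 passed the filter on low counts that left 18204 genes for testing.

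Each library was made from 1 left hippocampus, taken from a saline-perfused mouse at 4 months of age. The groups were 5xFADHEMI females (n = 5), 5xFADHEMI males (n = 5), 5xFADHEMI:CLUh2kbKIHO females (n = 4) and 5xFADHEMI:CLUh2kbKIHO males (n = 5), called 5xFAD and knock-in below. Every animal, controls included, carried the 5xFAD transgenes, which express mutant human amyloid precursor protein and presenilin in neurons under a Thy1 promoter. No mice without these transgenes were analysed here, so each genotype comparison is one of knock-in against 5xFAD on an amyloid background. The labels give neither a batch nor a litter, and the animal identity numbers of each genotype fall in separate ranges, so genotype and any shared handling of a genotype cannot be told apart. Animals are named below by the short replicate number in their titles. P-values measure the spread between these animals.

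A snoRNA is released from the spliced-out intron of its host and then guides the chemical modification of ribosomal and spliceosomal RNA. Box C/D snoRNAs direct methylation of ribose, box H/ACA snoRNAs direct the conversion of uridine to pseudouridine, and related scaRNAs work in Cajal bodies on spliceosomal RNA. The spliced host RNA is a by-product in many of these genes: it often starts with a pyrimidine tract shared with ribosomal protein mRNAs and is degraded by nonsense-mediated decay when it is translated. Snhg14 differs from this pattern, since it is a very long, imprinted transcript of the Prader-Willi and Angelman locus that is made in neurons, stays largely in the nucleus and runs antisense to Ube3a, the ubiquitin ligase gene of Angelman syndrome.

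The small RNAs inside the hosts show which class each gene serves. They are printed from GENCODE M21 transcripts (GRCm38), 5′ to 3′, with the letters TGATGA (box C) within the first 20 bases, CTGA (box D) within the last 20 bases, or ACA at 3 bases from the 3′ end (the H/ACA tail) in capitals. The first pair shows the repeated snoRNA families of Snhg14, and the rest show 1 small RNA for a host of each class.
Snord116l1 in Snhg14: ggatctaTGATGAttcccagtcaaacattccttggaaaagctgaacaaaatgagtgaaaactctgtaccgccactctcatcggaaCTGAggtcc
Most frequent 79-base snoRNA in Snhg14: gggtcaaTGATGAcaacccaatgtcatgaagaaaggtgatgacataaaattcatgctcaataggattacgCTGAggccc
Snord47 in Gas5: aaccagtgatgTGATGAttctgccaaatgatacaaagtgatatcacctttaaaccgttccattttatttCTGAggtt
Snord99 in Snhg12: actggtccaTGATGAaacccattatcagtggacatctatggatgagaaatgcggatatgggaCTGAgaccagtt
Snora24 in Snhg8: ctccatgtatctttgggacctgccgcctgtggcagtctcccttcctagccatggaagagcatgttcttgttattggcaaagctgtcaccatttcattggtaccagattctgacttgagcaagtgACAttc
Gm26083 in Snhg20: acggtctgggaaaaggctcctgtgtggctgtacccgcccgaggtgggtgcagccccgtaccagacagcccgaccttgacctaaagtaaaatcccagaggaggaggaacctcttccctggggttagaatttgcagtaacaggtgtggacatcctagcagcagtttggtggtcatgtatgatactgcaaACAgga

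Snhg14 on chromosome 7 holds 208 annotated snoRNAs, of which 130 are 79 bases long and 68 are 94 bases long. Only 85 of the 208 sequences are distinct. The 94-base sequence printed above occurs 30 times in the gene and the 79-base sequence 33 times. Gas5 on chromosome 1 holds 10 small RNAs and Snhg1 on chromosome 19 holds 8, with both boxes found in 8 and 5 of them. Snhg6 on chromosome 1 carries 1 box C/D snoRNA, Snord87. Snhg3 on chromosome 4 carries 2 H/ACA snoRNAs and Snhg8 on chromosome 3 carries 1, while Snhg12 on chromosome 4 holds 5 of both classes. Snhg20 on chromosome 11 has no annotated snoRNA and holds 1 scaRNA. None of these small RNAs has a row in the count table, so the values below are those of the host rows. The small RNAs of Gas5, Snhg1, Snhg8, Snhg12 and Snhg20, Snora73a of Snhg3, and Gm22128 and Gm22285 of Snhg14 overlap annotated exons of their hosts. Reads from them could have been counted in the host row, and the table does not separate the sequences.

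The start sites also differ among the hosts. The 40 bases around a start are shown for 3 genes from RefSeq (GRCm38.p6), and capitals mark the run of C and T that covers the annotated start.
Snhg12, within chr4:132308428-132308727, plus strand: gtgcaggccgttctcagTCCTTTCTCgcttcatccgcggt
Gas5, second start, within chr1:161034916-161035215, plus strand: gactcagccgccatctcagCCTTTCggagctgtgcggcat
Snhg20, within chr11:117076533-117076832, plus strand: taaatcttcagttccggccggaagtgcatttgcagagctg
The run was 9 bases long in Snhg12, 7 in Snhg8, 6 at the second Gas5 start and 4 in Snhg1. The annotated starts of Snhg3, Snhg14 and Snhg20 and the first start of Gas5 lay in no such run, and the start of Snhg6 was not analysed here. Among 32851 promoters, 14% started inside a run of at least 4 pyrimidines and 7.25% inside one of at least 6.

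Total counts ran from 17.3 to 25.2 M (mega) per library. Clu, the knocked-in gene, measured 983 ± 139 CPM (counts scaled to library size) in 5xFAD females and 1204 ± 187 in knock-in females (SD, n = 5 and 4). In males it measured 976 ± 115 CPM in 5xFAD and 962 ± 181 in the knock-in (SD, n = 5 each). The table does not separate the introduced sequence from the mouse gene. All 6 neuron markers and all 6 hippocampal neuron markers fixed for the tissue were above 0 in every library.

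The 8 host genes spanned a wide range of levels. Gas5, whose RNA accumulates in growth-arrested cells, was the highest per length at 17.8 ± 2.60 CPM per kilobase of annotated exon (SD, n = 19). Snhg6 followed at 8.67 ± 1.76 and Snhg8 at 8.60 ± 2.99 CPM per kilobase, and these neighbours differed by less than their spread. Snhg12 (5.04 ± 1.18), Snhg14 (4.29 ± 1.72), Snhg20 (3.51 ± 1.53), Snhg3 (3.25 ± 0.759) and Snhg1 (2.48 ± 0.788 CPM per kilobase) formed a descending series in which each neighbour lay within the spread of the next. Without the length correction Snhg14 had the most reads, because its annotated exons add up to 26093 bases. The order per length rests on how each gene is annotated. Exons of all models together cover the whole span of Snhg1 (2969 bases), Snhg8 (853) and Snhg12 (2402), but 986 of 5673 bases of Snhg3.

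**Figure D1:**
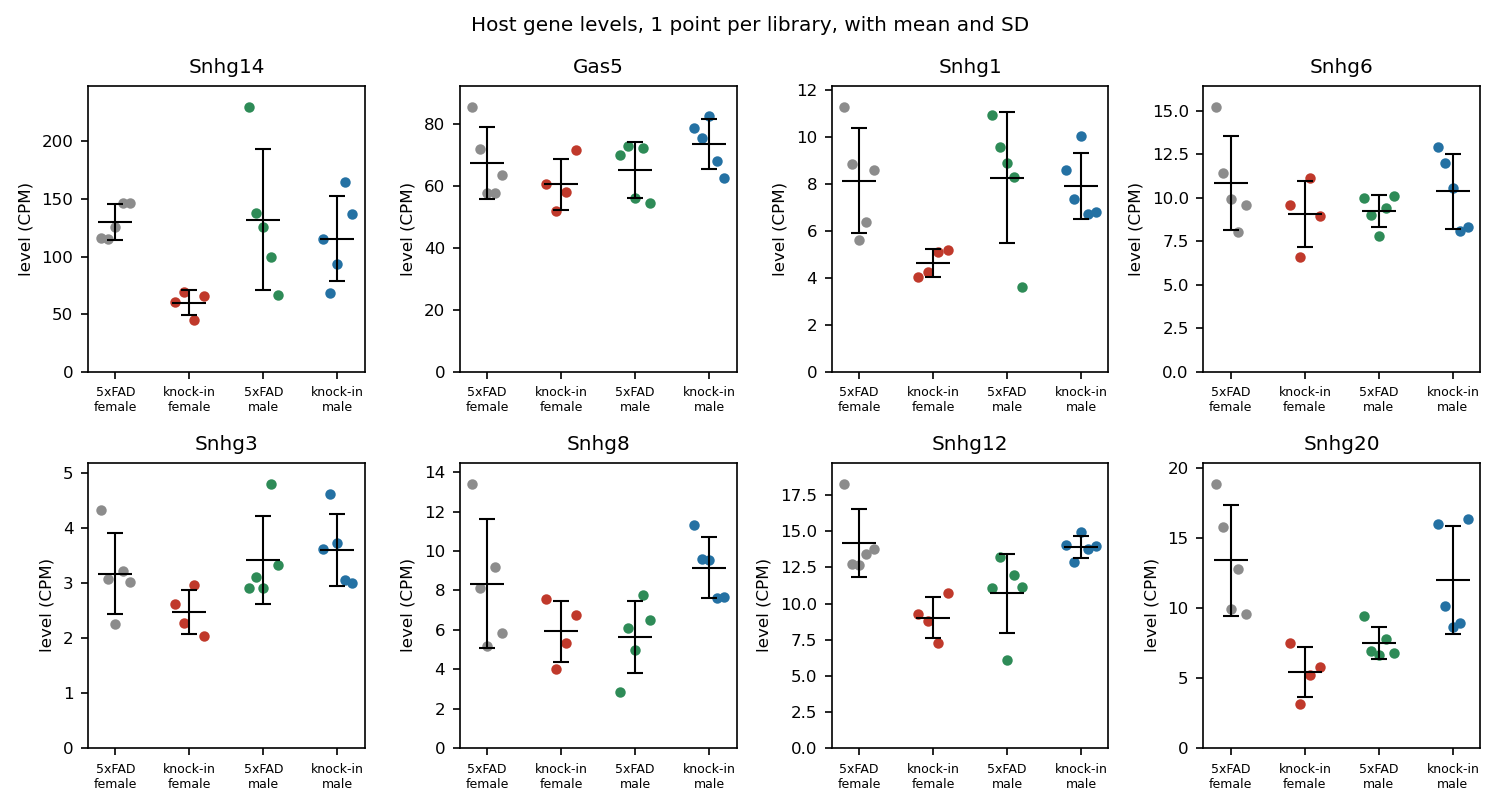
Level of each host gene in CPM (y axis) in the 4 groups (x axis), with 1 point per library and the mean and SD in black. The 4 knock-in female libraries lie below all 5xFAD female libraries for Snhg1, Snhg12, Snhg14 and Snhg20, as they do for 9.03% of all genes.

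In females, knock-in libraries held less Snhg14, Snhg12 and Snhg20 RNA than 5xFAD libraries, and the log2 change was negative for all 8 host genes. These 3 of 8 passed the test as lower (edgeR quasi-likelihood, Benjamini-Hochberg adjusted p below 0.05 over all genes tested), and none passed as higher. The background was 5.56% of genes called in either direction and 4.43% called lower. The median log2 change of the 8 was -0.57, against 0.01 over all 18204 genes. Long noncoding genes as a class had a median of -0.47 over 1770 tested, with 8.08% called lower. In males none of the 8 was called, and 6 of 8 had a positive sign.

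Snhg20, host of a scaRNA, had the largest change among the 8. It measured 9.60, 9.96, 12.8, 15.8 and 18.9 CPM in the 5xFAD females and 3.18, 5.20, 5.81 and 7.50 CPM in the knock-in females. The groups did not overlap, and the highest knock-in female lay below the lowest 5xFAD female, as in 9.03% of all genes. The log2 change was -1.30 ± 0.26 (SE), a 2.47-fold lower level (edgeR adjusted p = 0.0111).

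In males the order of Snhg20 was the other way round. The 5xFAD males measured 6.67, 6.82, 6.96, 7.83 and 9.41 CPM, and the knock-in males 8.63, 8.98, 10.1, 16 and 16.4 CPM. The groups overlapped, with 3 of 5 knock-in males above the highest 5xFAD male. The log2 difference was 0.67 ± 0.23 (SE) with an edgeR adjusted p of 0.694.

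Snhg14, the imprinted locus transcript, measured 115, 116, 125, 147 and 147 CPM in 5xFAD females and 45.0, 60.6, 65.8 and 69.0 CPM in knock-in females. Again no library of one group reached the other. The log2 change was -1.11 ± 0.28 (SE), a 2.16-fold lower level (edgeR adjusted p = 0.0303). The males spread widely, from 66.2 to 230 CPM in 5xFAD and from 68.6 to 164 CPM in the knock-in, and the log2 difference between them was -0.19 ± 0.26 (SE, edgeR adjusted p = 0.933). In bulk tissue, fewer cells of a type and less RNA per cell cannot be told apart.

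Snhg12, which hosts snoRNAs of both classes, measured 12.6, 12.7, 13.4, 13.8 and 18.3 CPM in 5xFAD females and 7.28, 8.80, 9.28 and 10.7 CPM in knock-in females. These groups did not overlap either. The log2 change was -0.65 ± 0.18 (SE), a 1.57-fold lower level (edgeR adjusted p = 0.0335). In males the values were 6.10, 11.1, 11.1, 12 and 13.2 CPM in 5xFAD and 12.9, 13.8, 14.0, 14.1 and 15 CPM in the knock-in, with 4 of 5 knock-in males above the highest 5xFAD male. That log2 difference was 0.38 ± 0.16 (SE, edgeR adjusted p = 0.727).

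Snhg1, host of box C/D snoRNAs, measured 5.61, 6.38, 8.58, 8.84 and 11.3 CPM in 5xFAD females and 4.02, 4.24, 5.10 and 5.19 CPM in knock-in females. The groups did not overlap, but the gene missed the threshold, with a log2 difference of -0.81 ± 0.25 (SE, edgeR adjusted p = 0.0607). It passed with DESeq2 (adjusted p = 0.0265) and with library size alone as scaling (edgeR adjusted p = 0.0318). Non-overlap of this direction was found for 4 of the 8 host genes and for 9.03% of all genes. In males Snhg1 differed by -0.06 ± 0.23 on the log2 scale (SE, edgeR adjusted p = 0.975).

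The other 4 host genes overlapped between the female groups and passed no test. The log2 differences in females were -0.49 for Snhg8 (edgeR adjusted p = 0.302), -0.36 for Snhg3 (0.373), -0.26 for Snhg6 (0.446) and -0.15 for Gas5 (0.528). For each of these 4 genes, 1 of 4 knock-in females lay below the lowest 5xFAD female. Gas5 was the steadiest host, at 67.3 ± 11.6 CPM in 5xFAD females and 60.5 ± 8.18 in knock-in females (SD, n = 5 and 4). In males Snhg8 differed by 0.69 ± 0.26 on the log2 scale (SE, edgeR adjusted p = 0.715), Gas5 by 0.17, Snhg6 by 0.16 and Snhg3 by 0.08.

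Across the 4 groups, Snhg8, host of an H/ACA snoRNA, ranged from 5.19 to 13.4 CPM in 5xFAD females, 4.03 to 7.55 in knock-in females, 2.86 to 7.78 in 5xFAD males and 7.60 to 11.3 in knock-in males. Of the knock-in males, 3 of 5 lay above the highest 5xFAD male. Snhg3, which also hosts H/ACA snoRNAs, was the lowest of the 8 in CPM, at 2.25 to 4.32 in 5xFAD females, 2.04 to 2.96 in knock-in females, 2.92 to 4.81 in 5xFAD males and 3 to 4.62 in knock-in males.

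Snhg6, with its single box C/D snoRNA, ranged from 8.04 to 15.2 CPM in 5xFAD females, 6.58 to 11.1 in knock-in females, 7.82 to 10.1 in 5xFAD males and 8.11 to 13.0 in knock-in males. Its 4 groups overlapped throughout. Gas5 ranged from 54.6 to 72.9 CPM in 5xFAD males and from 62.5 to 82.6 CPM in knock-in males, with 3 of 5 knock-in males above the highest 5xFAD male. 5xFAD female 1 had the highest level of its group for all of these 4 genes and for Snhg1, Snhg12 and Snhg20, but not for Snhg14.

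**Figure D2:**
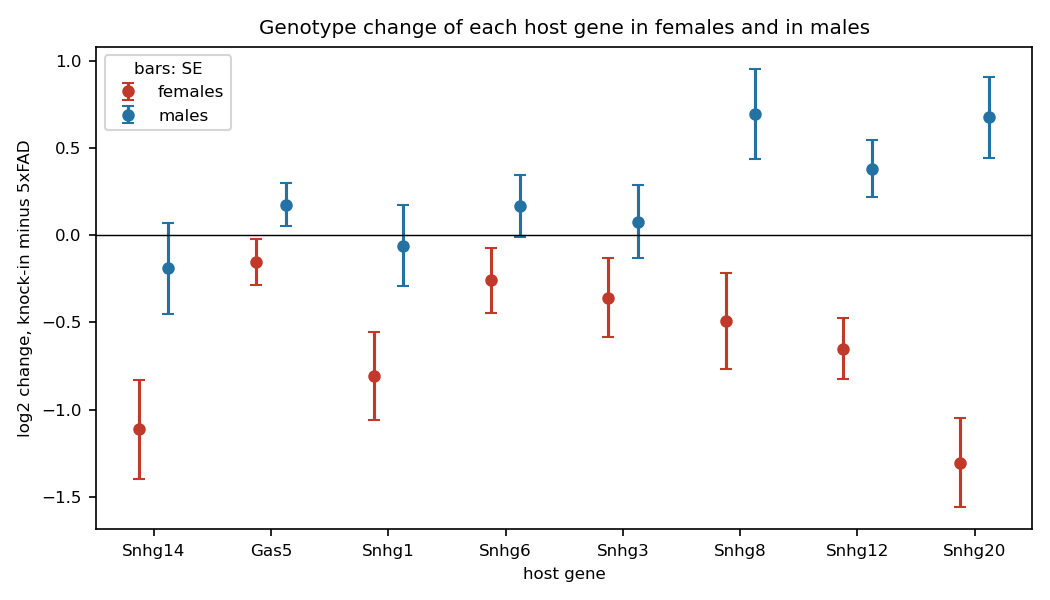
Log2 change of each host gene, knock-in minus 5xFAD (y axis), in females (red) and males (blue), with SE bars. All 8 female values are below 0, while 6 of 8 male values are above it.

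The calls in females rested on few libraries. Without knock-in female 2 or knock-in female 4 none of the 8 was called, and without knock-in female 1 or 5xFAD female 1, 4 or 5 only 1 was. Over all genes, 0% were called without knock-in female 2 or 4 and 5.13% without knock-in female 1. The share was 2%, 2.42% and 4.19% without 5xFAD female 1, 4 and 5. Snhg20 kept its call in 17 of 19 fits that left out a library. Its edgeR adjusted p was 0.0546 without knock-in female 2 and 0.0714 without knock-in female 4. Snhg12 kept it in 13 of 19 and Snhg14 in 12 of 19, with the highest adjusted p (0.156 and 0.128) without knock-in female 4. Snhg14 also lost its call without knock-in female 5 (adjusted p = 0.0544). Snhg1 gained a call without 5xFAD female 3 or 5xFAD male 10.

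The scaling and the tool moved these calls too. DESeq2 called 4 of the 8 in females, Snhg1, Snhg12, Snhg14 and Snhg20, against 9.94% of all genes, and limma-voom called Snhg12, Snhg14 and Snhg20. On the authors' normalized counts, tested with limma, Snhg12 lost its call (log2 difference -0.45, adjusted p = 0.246). There Snhg14 measured -1.76 (limma adjusted p = 0.0114), Snhg20 -1.15 (adjusted p = 0.021) and Snhg1 -0.41 (adjusted p = 0.333).

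For males, the count of 0 called by edgeR was matched by 0 of 18204 genes called (0%), and DESeq2 and limma-voom also called none of the 8. At an unadjusted p below 0.05, 3 of the 8 (Snhg8, Snhg12 and Snhg20) and 6.52% of all genes passed, all 3 host genes with a positive sign. Over both sexes, edgeR called 0 of the 8 and 0.022% of all genes. The unadjusted p was below 0.05 for 2 of the 8, against 11.9% of all genes, namely Snhg14 (log2 difference -0.62, adjusted p = 0.328) and Snhg1 (-0.41, adjusted p = 0.403), and DESeq2 and limma-voom called none.

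The difference between the female and the male change was tested as an interaction. It was negative for all 8 host genes, with a median of -0.84 on the log2 scale against -0.02 over all genes. Long noncoding genes as a class were negative here too, with a median of -0.56 over 1770 tested. Snhg20 had the lowest p of all 18204 genes, with an interaction of -1.98 ± 0.35 (SE, edgeR adjusted p = 0.0499). That was 1 of 8 called, against 0.308% of all genes in either direction and 0.291% called lower. Snhg12 (-1.03, adjusted p = 0.055) and Snhg8 (-1.19, adjusted p = 0.113) followed without passing.

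The Snhg20 interaction lay just under the threshold and was called in 5 of 19 fits that left out a library, namely those without knock-in female 5, knock-in male 7 or 8, or 5xFAD male 6 or 7. Leaving out any of the other 14 libraries gave an adjusted p up to 0.142, while the interaction stayed between -2.14 and -1.81. DESeq2 called Snhg8, Snhg12 and Snhg20, against 4.21% of all genes, and limma-voom called none of the 8.

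Comparing the sexes within a genotype used the same libraries again. In 5xFAD, Snhg20 was higher in every female than in every male, a separation in that direction shared by 1.05% of genes, but edgeR called none of the 8 (0.0385% of genes called). Its log2 difference was 0.83 ± 0.23 (SE, edgeR adjusted p = 0.35). In that comparison 3 of the 8 and 11.1% of all genes had an unadjusted p below 0.05, and limma-voom called none. DESeq2 gave an adjusted p for Snhg14 and Gas5 alone (0.972 and 0.881) and none for the other host genes.

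In the knock-in, all 4 females lay below all 5 males for Snhg1, Snhg3, Snhg8, Snhg12 and Snhg20, a separation shared by 3.46% of genes. edgeR called none of the 8 (0.0494% of genes called), with 7 of 8 at an unadjusted p below 0.05, against 14.4% of all genes. The lowest adjusted p was 0.0903, for Snhg20 (log2 difference -1.15 ± 0.25, SE, edgeR). DESeq2 called Snhg12, Snhg14 and Snhg20 in this comparison, against 2.8% of all genes, and limma-voom called none.

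The level of other nuclear long noncoding RNAs moved with Snhg14, Snhg20 and Snhg1, and little with Snhg3, Snhg6 and Snhg8. For a set of 8 RNAs retained in the nucleus (Meg3, Snhg11, Malat1, Rian, Miat, Neat1, Kcnq1ot1 and Mirg), the mean log2 CPM was 8.21 ± 0.17 in 5xFAD females and 6.53 ± 0.43 in knock-in females (SD, n = 5 and 4). The male groups measured 7.67 ± 0.74 in 5xFAD and 7.81 ± 0.53 in the knock-in (SD, n = 5 each). Of these 8 RNAs, 7 passed the edgeR test as lower in females and none was called in males. In females 4.43% of all genes and 8.08% of long noncoding genes were called lower. 5xFAD male 10 stood with the knock-in females on this measure, at 6.41, and it also had the lowest Snhg14 (66.2 CPM) and Snhg1 (3.60 CPM) of its group.

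**Figure D3:**
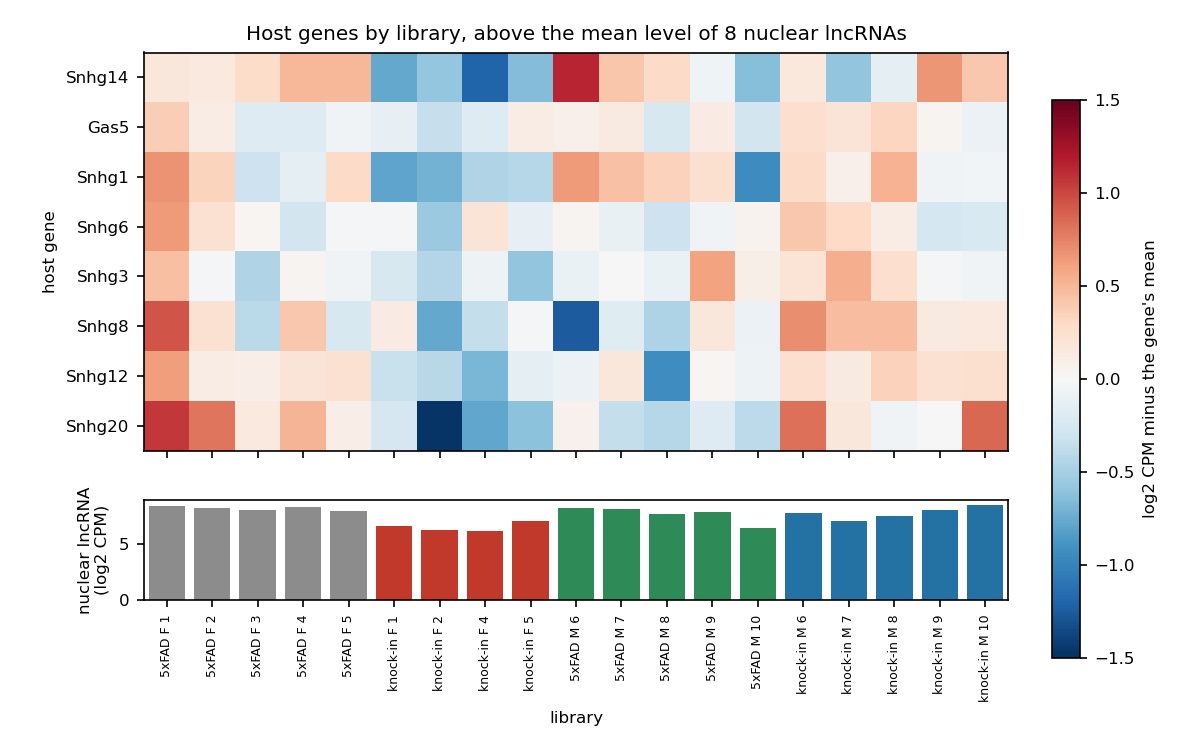
Top, log2 CPM of each host gene minus its mean over the 19 libraries (colour) by library (x axis). Bottom, mean log2 CPM of 8 nuclear long noncoding RNAs in the same libraries, where knock-in females and 5xFAD male 10 are lowest.

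Across the 19 libraries, Pearson's r with that nuclear RNA level was 0.88 for Snhg14, 0.76 for Snhg20, 0.74 for Snhg1, 0.61 for Snhg12 and 0.44 for Gas5. It was 0.24 for Snhg3, 0.23 for Snhg8 and 0.13 for Snhg6. With the group means removed it was 0.79 for Snhg14, 0.54 for Snhg1, 0.46 for Snhg20, 0.33 for Gas5 and 0.24 for Snhg12. It was then negative for Snhg8 (-0.08), Snhg6 (-0.22) and Snhg3 (-0.27). These are descriptions over libraries that share depth and composition.

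With the nuclear RNA level as a covariate, the female log2 change was 0.07 for Snhg14, -0.43 for Snhg12, -0.70 for Snhg20, -0.12 for Snhg1 and 0.07 for Gas5, and edgeR called none of the 8. The values of the other hosts were larger in size than without it, at -0.62 for Snhg3, -0.46 for Snhg6 and -0.54 for Snhg8. No gene of the whole table was called in that fit either. In females the covariate nearly repeated the genotype, since the highest knock-in female, at 7.08, lay below every 5xFAD female. Most RNAs of the set were also called lower in these same females. The fit therefore cannot separate genotype from nuclear RNA level in females. The loss of calls does not show what lowered the host genes. Long noncoding genes as a class were lower in females too, with 143 of 1770 called lower (8.08%) and a median log2 change of -0.47, against 526 of 15126 protein-coding genes (3.48%) and a median of 0.04.

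**Figure D4:**
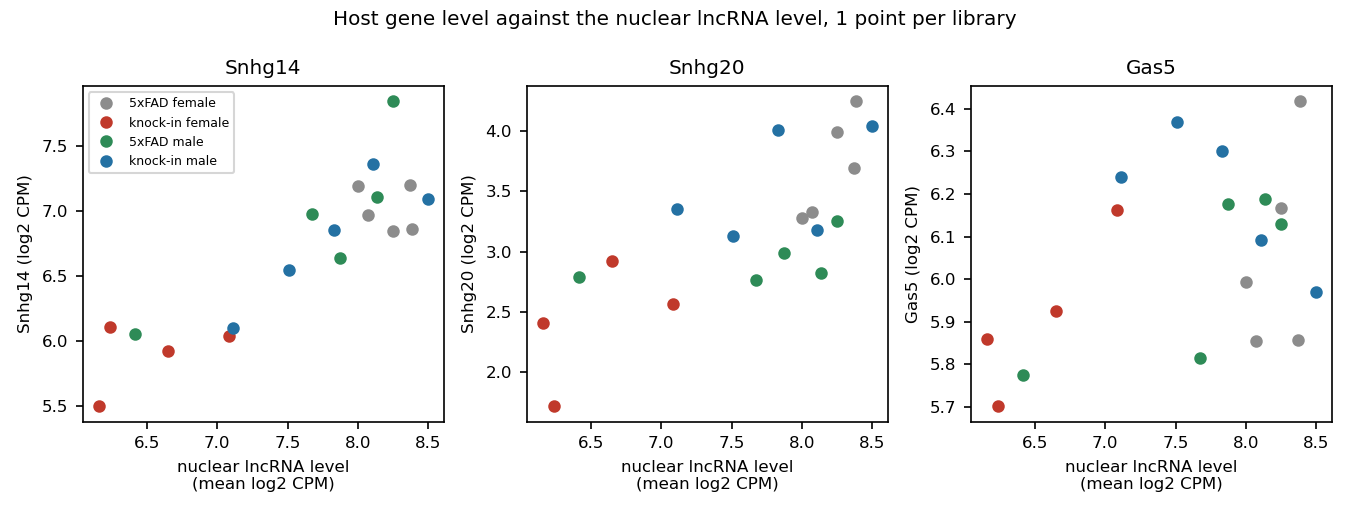
Log2 CPM of Snhg14, Snhg20 and Gas5 (y axes) against the mean log2 CPM of 8 nuclear long noncoding RNAs (x axes), 1 point per library, coloured by group. Snhg14 follows the x axis most closely (r = 0.88) and Gas5 less (r = 0.44).

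Markers of other cells moved as well in females. Of 5 erythrocyte markers 3 were called higher (Hbb-bs, Hba-a1 and Hbb-bt), and their summed level was 100 to 159 CPM in 5xFAD females and 192 to 355 CPM in knock-in females. Of 6 astrocyte markers 2 were called higher, Gfap (log2 change 0.59) and Aqp4 (0.54). Over all genes, 206 of 18204 were called higher. The 6 choroid plexus markers passed no test, with summed levels of 616 to 5189 CPM in 5xFAD females and 3445 to 11354 CPM in knock-in females. No neuron, hippocampal neuron, microglia, oligodendrocyte or endothelial marker was called. All 6 microglia, 6 oligodendrocyte and 6 endothelial markers still had a positive log2 change, with medians of 0.41, 0.23 and 0.19. The neuron and the hippocampal neuron markers each had 4 of 6 positive. In males all 6 microglia markers were positive too (median 0.44). The part of these cells in the host gene values was not tested.

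The named genes around Snhg14 passed no test in females. Its exons overlap those of Ube3a on the opposite strand over 1803 bases, and the labels do not say whether reads kept their strand. Ube3a measured 126 ± 13.2 CPM in 5xFAD females and 137 ± 20.8 in knock-in females (SD, n = 5 and 4), a log2 difference of 0.12 (edgeR adjusted p = 0.604). Snrpn, a spliceosomal protein gene of the same imprinted locus, differed by 0.15 (adjusted p = 0.459), and none of the 11 tested genes of the locus list was called. Inside the Snhg14 span lie 3 tested gene models that the annotation leaves without a class. Of these, Gm44829 (log2 change -2.14, edgeR adjusted p = 0.0286) and Gm44831 (-2.33, adjusted p = 0.0294) were lower in females, and A230103L15Rik differed by -1.45 (adjusted p = 0.163). Levels were low, with means of 1.24 CPM for Gm44829, 0.984 for Gm44831 and 3.19 for A230103L15Rik. These models share no exonic bases with Snhg14. Gm44831 and A230103L15Rik lie on its strand and Gm44829 on the opposite one.

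Other overlaps touch Snhg3 and Snhg6. Snhg3 shares 135 exonic bases with Rcc1, a chromatin-bound exchange factor gene on the same strand, and 705 with Gm17300 on the opposite strand. Snhg6 shares 127 with Mcmdc2 on the opposite strand. Gas5 spans part of Zbtb37 without sharing exons with it (log2 difference -0.97 in females, edgeR adjusted p = 0.0787). None of these 4 neighbours was called in females, and reads in the shared exonic bases could have been assigned to either gene.

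Among other noncoding snoRNA hosts, Snhg11, Snhg17 and Dancr fell in females. Of 13 listed, 9 were tested and these 3 were called, with log2 changes of -2.13 for Snhg11, -1.12 for Snhg17 and -1.07 for Dancr. Over all genes, 4.43% were called lower, and 8.08% of long noncoding genes. Snhg11 also belongs to the nuclear RNA set above, so the lists are not independent. Zfas1, the second most abundant of them, differed by -0.32 (edgeR adjusted p = 0.285). The median of the 9 was -0.62, and none was called in males.

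Protein-coding snoRNA hosts were called about as often as genes at large, of which 5.56% were called in females. Of 32 tested, 1 rose in females (Tpt1, a translationally controlled protein, log2 change 0.42) and 1 fell (Taf1d, a subunit of the RNA polymerase I selectivity factor, -0.84), with a list median of 0.16. Hspa8, a chaperone gene and the most abundant of these, differed by 0.30 (edgeR adjusted p = 0.085).

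The proteins that act with snoRNAs were called in neither sex. In females 0 of 8 core proteins passed, among them Nop56 of the C/D particle (log2 difference -0.40, edgeR adjusted p = 0.0528), as did 0 of 15 assembly factors and 0 of 19 genes of ribosomal RNA processing and RNA polymerase I. Of 18 nonsense-mediated decay factors, the kinase gene Smg1 alone fell (-0.83, edgeR adjusted p = 0.0309), beside 4.43% of all genes called lower. Of 16 known decay targets, 0 passed. None of 79 ribosomal protein genes, whose mRNAs share the pyrimidine start of some hosts, was called in females (median 0.17), nor any of 15 TOR and MYC growth genes. Of 9 genes of the glucocorticoid receptor and its targets, listed because Gas5 RNA can bind that receptor, Pdk4 rose (0.55, adjusted p = 0.0395).

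By likeness of log2 CPM over the 19 libraries, Snhg14 was closest to Vmn2r53 (r = 0.96), Luc7l2 (0.96) and the imprinted antisense RNA Kcnq1ot1 (0.96). Snhg20 was closest to Lrrc45 (0.91), Crocc (0.91) and Sfi1 (0.91). Snhg12 was closest to Dpysl4 (0.83), Alkbh3 (0.82) and Ap5z1 (0.81). Both Snhg1 and Gas5 had another snoRNA host as their nearest gene, Snhg5 for Snhg1 (0.90) and Zfas1 for Gas5 (0.84).

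The remaining hosts were closest to protein-coding genes. These were Kri1, Vps37d and Mrps11 for Snhg8, Frg1, Rabggtb and Zcchc18 for Snhg3, and Lin7b, Mtg1 and Snrpd2 for Snhg6, while Tial1 and Ddb2 came next for Snhg1, and Dph1 and Qtrt1 for Gas5. Among the 8 hosts themselves, r was positive in 26 of 28 pairs, with a median of 0.53. With the group means removed it was positive in 24 of 28 pairs, with a median of 0.30 and a range from -0.54 to 0.72.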

How the data were processed

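Bulk RNA sequencing of 19 hippocampus libraries was analysed. The submitters' processing notes name Salmon, FastQC, Seurat, DESeq2 and the build mm39, with no versions or roles. The authors deposited estimated counts per gene as whole numbers, normalized counts (a signal scaled per gene and library) and variance-stabilized log2 values. Counts were used for the tests, the normalized counts with a pseudocount of 1 as an alternative, and the log2 values for none. GENCODE M21 (GRCm38) gave symbols for 20023 of 20655 IDs, and 632 had none. Since the builds differ, no gene coordinates are given on mm39, and those of the printed RefSeq promoter windows are on GRCm38.p6.

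Genes passing filterByExpr (minimum count 10) were fitted in 1 edgeR 4.0.16 quasi-likelihood model (R 4.3.3) over the 4 groups, with TMM scaling. CPM uses TMM-scaled library sizes, and log2 CPM a prior count of 2. Method checks used simulated data. All 36 within-group pairs of libraries differed by more than sampling noise (chi-square per gene 8.95 to 67.4).

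Members and lists were chosen with earlier results of these data known. From each list, the text names the 2 most abundant genes and those called, and for each host the 3 most similar genes of at least 1 in mean log2 CPM, without pseudogenes or numbered models. Alternatives were DESeq2 1.42.0, limma 3.58.1 (voom), other scalings and filters, a nuclear RNA covariate, the replicate number in the titles as a block, and each library left out.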

Additional observations from a re-analysis of the deposited data

Results flagged for a closer look

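Single libraries stood far from the rest of their group in 4 of 32 combinations of host gene and group. The nominal rate of this rule is about 1 in 20, and its share over all genes was not calculated. Snhg1 was lowest in 5xFAD male 10, at 3.60 CPM, and Snhg12 was lowest in 5xFAD male 8, at 6.10 CPM. Snhg3 was highest in 5xFAD male 9, at 4.81 CPM, and Snhg12 was highest in 5xFAD female 1, at 18.3 CPM.

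The genotype change of Snhg20 in females minus that in males was -1.98 on the log2 scale (edgeR adjusted p = 0.0499). Snhg20 was lower in 4 of 4 knock-in females than in any 5xFAD female, a separation shared by 9.03% of all genes. It was above the highest 5xFAD male in 3 of 5 knock-in males.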

How the results depend on the processing

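Of 1370 values of the 8 host genes with an adjusted p under alternative settings, 1269 kept their direction and their side of the threshold. Another 41 lost a call, 16 gained one and 44 changed sign, counted so whether or not a call was lost too. Only results called in the edgeR fit of all libraries could lose a call. These were Snhg12, Snhg14 and Snhg20 in females and the Snhg20 interaction, so most of the 1370 values had no call to lose. Where no value below shows the cause of a change, the cause was not tested. The number of host genes called in females was 4 with DESeq2, 4 with library size alone, 2 with the authors' normalized counts, 0 with the nuclear RNA covariate and 0 with the replicate block, and ran from 0 to 4 when 1 library was left out. For the interaction the number called was 3 with DESeq2, 2 with library size alone as scaling and 0 with limma-voom, DESeq2 size factors, the authors' normalized counts, no filter on low counts, the covariate or the replicate block, and ran from 0 to 2 with 1 library left out. For the sexes within the knock-in it was 3 with DESeq2 and ran from 0 to 1 with 1 library left out.

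The replicate numbers in the titles did not pair the samples: same-numbered libraries of the 2 genotypes correlated at -0.203 to 0.119, and 1 of 9 correlated best with its own number. With the number as a block, the adjusted p in females was 0.101 for Snhg20, 0.137 for Snhg14 and 0.133 for Snhg12, and no gene was called.

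Some differences changed sign. With the covariate, the log2 values were 0.00595 (Snhg6), 0.135 (Snhg12) and 0.227 (Snhg20) over both sexes, 0.068 (Snhg14) and 0.073 (Gas5) in females, 0.32 (Snhg14) for the interaction, -0.0234 (Gas5) for sex in 5xFAD and 0.00944 (Snhg14) for sex in the knock-in. With the authors' normalized counts they were 0.0295 (Snhg12) over both sexes, 0.216 (Gas5) in females, 0.0126 (Gas5) for the interaction, and 0.30 (Snhg14) and -0.0557 (Gas5) for sex in 5xFAD. With limma-voom they were 0.0215 (Snhg1) in males, and 0.0265 (Snhg1) and 0.0925 (Snhg14) for sex in 5xFAD. With library size alone they were -0.00947 (Gas5) over both sexes, and 0.056 (Snhg1) and 0.0591 (Snhg14) for sex in 5xFAD, and with the block 0.00299 (Snhg1) in males.

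With 1 library left out, the values over both sexes ran from -0.0932 to 0.0339 for Snhg6 and from -0.0113 to 0.064 for Gas5. In males they ran from -0.25 to 0.0605 for Snhg1, from -0.0263 to 0.225 for Snhg3 and from -0.357 to 0.106 for Snhg14. For sex in 5xFAD they ran from -0.202 to 0.0988 for Snhg1, from -0.218 to 0.0501 for Snhg3, from -0.177 to 0.276 for Snhg14 and from -0.0318 to 0.0992 for Gas5.

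Over all genes, edgeR called 206 higher and 807 lower in females, DESeq2 557 and 1253, and library size alone 43 and 1236. For the interaction the numbers were 3 and 53 with edgeR, 234 and 532 with DESeq2, and 3 and 399 with library size alone, which moved the median of all genes by -0.134 there and by -0.0987 in females.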
